A study of Mus musculus with 9 samples.

Results

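The RNA of 61 genes for cytosolic ribosomal proteins was followed in the non-tumor liver of mice from a model of fatty liver cancer. The genes were taken by name alone. Each carried, in the annotation of the array, a symbol made of Rpl or Rps, a number and at most a closing a, x or l, or was Rplp0, Rplp1 or Rpsa. The array held 22206 tested probe sets, of which 19572 had a single gene symbol, and each of the 61 genes was measured by 1 probe set. Of these genes, 38 belong to the large subunit and 23 to the small subunit. Rplp2 was not analysed here, and Fau, Rpl7l1 and Rpl22l1, which the naming rule leaves out, were read only beside the family.

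All mice were male and of the strain C57BL/6 by their labels, and the methods give a transgenic line backcrossed to C57BL/6J. They received a high-fat diet from an age of 6 weeks, and their livers were taken at 40 weeks. The HNK group held MUP-uPA mice given honokiol, a compound of magnolia bark, by intraperitoneal injection at 10 mg/kg, 3 times per week from 32 weeks of age. The MUP group held MUP-uPA mice given the control treatment, and the WT group held their wild-type littermates with the control treatment. In MUP-uPA mice the promoter of a major urinary protein gene drives urokinase in hepatocytes, so the model is one of hepatocyte injury, and the sampled tissue lay beside tumors. Each group had 3 arrays. Each array was taken as a separate mouse, and p-values measure only the spread between these samples.

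Ribosomal proteins fold onto ribosomal RNA to form the small subunit, which reads the messenger RNA, and the large subunit, which joins the amino acids. Cells keep the proteins of both subunits in step, largely at the level of translation: most of their messenger RNAs begin with a C and a run of pyrimidines, the terminal oligopyrimidine (TOP) motif, through which the kinase complex mTORC1 sets how much is translated. The study also followed signaling below EGFR by immunoblots of liver extracts, among them blots for the S6 kinase and the ribosomal protein S6. The S6 kinase is activated by mTORC1 and phosphorylates S6. In the non-tumor liver of MUP-uPA mice the study reported lower S6 kinase and S6 signals after honokiol. The arrays measure neither phosphorylation nor translation, only the amount of RNA.

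The start of the transcript is shown for the members on which the results below turn, since it carries the TOP motif. The sequences are from the RefSeq promoter table for the mouse assembly GRCm38.p6, which held 48 of the 61 genes. Each window has 30 bases on the strand of the gene, 15 before the annotated start and 15 from the start onward. Capitals mark a C followed by at least 4 more pyrimidines, taken from the C of this kind that lies nearest to the annotated start. Rpl15 lies at chr14:18270972-18271001 on the minus strand, Rpl28 at chr7:4792950-4792979 on the plus strand, Rps6 at chr4:86857353-86857382 on the minus strand and Rpl10a, at the first of its starts, at chr17:28328456-28328485 on the plus strand. Rps9 lies at chr7:3704026-3704055 on the plus strand, Rps28 at chr17:33824548-33824577 on the minus strand and Rpsa at chr9:120127751-120127780 on the plus strand.
Rpl15: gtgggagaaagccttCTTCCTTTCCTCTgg
Rpl28: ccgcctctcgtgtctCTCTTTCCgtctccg
Rps6: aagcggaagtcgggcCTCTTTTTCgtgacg
Rpl10a: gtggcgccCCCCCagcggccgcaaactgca
Rps9: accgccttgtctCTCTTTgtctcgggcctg
Rps28: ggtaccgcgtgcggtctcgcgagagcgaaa
Rpsa: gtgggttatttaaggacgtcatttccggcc
In Rpl15, Rpl28 and Rps6 the annotated first base was such a C, and the pyrimidines counted from it were 13, 8 and 9. In Rpl10a and Rps9 the capitals begin before the start. In each of these genes pyrimidines also stood directly before the capitals. The windows of Rps28 and Rpsa held no such C.

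Such a C at the annotated start was found in 12 of the 48 genes, 25.0% of them, against 2.67% of the 17492 protein-coding genes in the same table. The 12 were Rpl14, Rpl15, Rpl28, Rpl32l, Rpl35, Rpl35a, Rpl38, Rps10, Rps15a, Rps18, Rps21 and Rps6. Allowing 20 bases on either side of the start, the share was 85.4% of the ribosomal protein genes and 54.0% of protein-coding genes. In the full window of 300 bases, read on both strands, CCGGAAG, a motif bound by ETS factors, stood in 41.7% of the ribosomal protein promoters and 12.9% of protein-coding promoters. The GC box GGGCGGG (39.6% and 36.9%), the TATA box TATAAA (12.5% and 14.8%) and AAGATGGC, a motif bound by YY1 (6.25% and 3.57%), differed less between the sets, and none of these 4 motifs contains another. These are counts of letters, not of bound sites.

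The ribosomal protein probe sets were among the brightest of the array. Values are given as log2 of the normalized intensity. Of the 61 genes, 32 lay in the top 5 percent of all probe sets by mean level, between 12.7 and 17.5. The brightest was Rps23, a protein of the decoding center, at 17.54, followed by Rps6 at 16.91 and Rpl17 at 16.38. The highest value on each array was 19.75 to 19.93, and the ribosomal protein gene closest to it was Rps23 on each array, lower by 2.05 on MUP 1 and by 2.26 to 2.49 on the other arrays. Brightness is not comparable between probe sets as a measure of abundance.

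The bright genes varied between replicates about as much as the others. The median SD within groups was 0.285 for the 32 brightest genes and 0.305 for the other 29. It was 0.298 over all probe sets and 0.260 over all probe sets in the top 5 percent. A like spread between replicates does not show whether differences between groups were compressed. Saturation of single probes was not tested. At the other end, Rpl39l lay at or below the highest negative control median of 5.10 on 9 of 9 arrays and Rpl3l on 7.

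Hepatocyte markers other than Cps1 were near the top of every array. Cps1 was 16.1, 16.9 and 16.7 in HNK livers, 16.8, 16.7 and 17.1 in MUP livers, and 15.5, 15.5 and 15.9 in WT livers. Medians over the 6 genes were 19.67 to 19.76 in HNK, 19.67 to 19.75 in MUP and 19.55 to 19.61 in WT livers. The highest value on each array was 19.75 to 19.93. So close to the top of the scale, these medians cannot show whether the share of hepatocytes differed. Skeletal muscle genes were seen on 2 arrays: the median of 10 genes was 12.41 on HNK 3 and 12.70 on MUP 2, and 3.97 to 4.49 on the other arrays. The summed level of the 4 macrophage markers was 9.82 to 12.09 in HNK, 10.50 to 12.01 in MUP and 12.43 to 13.92 in WT livers. That of the 2 erythroid genes measured was 11.06 to 11.67 in HNK, 11.63 to 12.29 in MUP and 10.52 to 11.05 in WT livers. In MUP against WT livers limma called 1 of the 4 macrophage markers lower (Adgre1), 1 of the 2 erythroid genes higher (Alas2) and 1 of the 6 hepatocyte markers higher (Cps1). In HNK against WT livers Adgre1 was again called lower (limma adjusted p = 0.0368) and Cps1 higher (limma adjusted p = 0.0469), and Alas2 was not called. In bulk tissue, fewer cells of a type and less RNA per cell cannot be told apart, and the part of these differences in the results below was not tested.

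MUP livers were first compared with WT livers, which asks how the injured fatty liver differs from liver that received the diet alone. The ribosomal protein genes did not move as a block. Rpl28 was higher in MUP livers, Rpl15 and Rpl10a were lower, and the other 58 genes were not called by limma at an adjusted p under 0.05. The 3 called genes were 4.92% of the family, and 3.58% of all probe sets were called in this comparison (1.44% higher and 2.13% lower). With no adjustment of p, 5 genes were higher and 5 lower at the 0.05 level, beside 7.82% and 9.52% of all probe sets. The median log2 difference over the family was -0.02, with quartiles of -0.23 and 0.25, and over all probe sets it was 0.004. Of the means, 29 were higher and 32 lower in MUP livers.

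**Figure D1:**
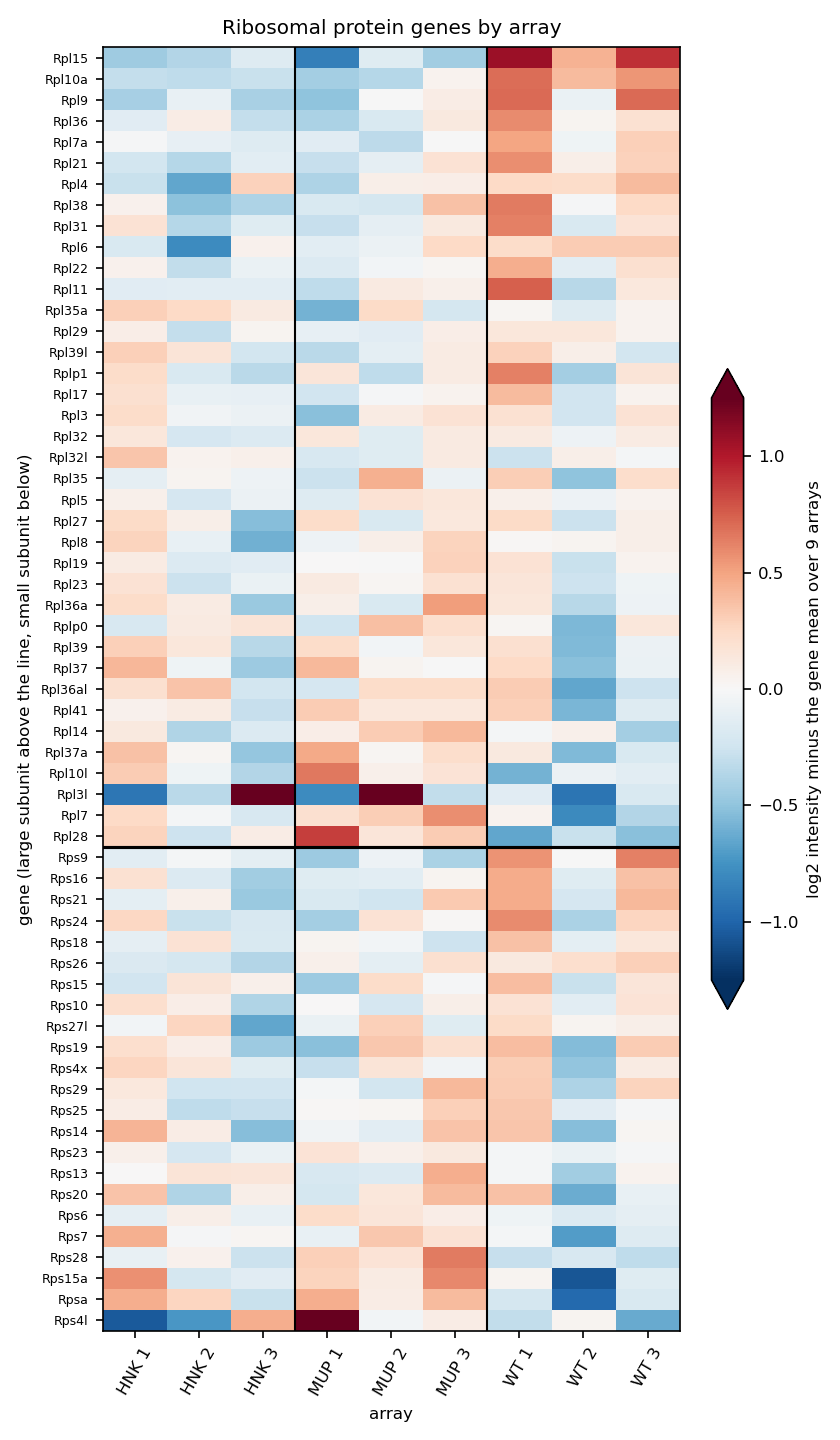
Log2 intensity of each of the 61 ribosomal protein genes on the 9 arrays, as the deviation from the mean of that gene over all arrays. Genes are rows, with the large subunit above the line and the small subunit below it, ordered from lower to higher in MUP against WT livers. Arrays are columns in the order HNK, MUP and WT. Red is above and blue below the gene's own mean. Rpl15 and Rpl10a stand out as red on all 3 WT arrays, and the columns of WT 1 and WT 2 differ over most genes.

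Rpl15, a core protein of the large subunit, had the largest fall among the 61 genes. Its log2 intensity was 13.93, 14.01 and 14.22 in HNK livers, 13.52, 14.22 and 13.94 in MUP livers, and 15.44, 14.81 and 15.29 in WT livers. Every HNK and MUP value lay below every WT value, and the HNK and MUP values overlapped. The mean was 13.89 ± 0.35 in MUP livers and 15.18 ± 0.33 in WT livers (SD, n = 3 each), which is 2.44-fold lower in MUP livers (log2 fold change -1.29, SE 0.22, limma adjusted p = 0.00878). HNK livers averaged 14.05 ± 0.15 and were 2.19-fold lower than WT livers (limma adjusted p = 0.022). The call in MUP livers was lost without WT 1 (limma adjusted p = 0.0533) or WT 3 (0.0539).

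Rpl10a, which forms the flexible L1 stalk beside the tRNA exit site, was likewise lower in HNK and in MUP livers than in WT livers. Its log2 intensity was 13.78, 13.76 and 13.80 in HNK livers, 13.66, 13.72 and 14.13 in MUP livers, and 14.78, 14.47 and 14.63 in WT livers. The HNK and MUP values again overlapped, and all lay below the WT values. In MUP livers it was 1.73-fold lower than in WT livers (log2 fold change -0.79, SE 0.17, limma adjusted p = 0.0297), and in HNK livers 1.80-fold lower than in WT livers (-0.85, limma adjusted p = 0.0289). Both calls depended on single arrays. In MUP against WT the call was lost without MUP 1, MUP 2 or any of the WT arrays, with limma adjusted p up to 0.129.

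Rpl28, a large subunit protein found in eukaryotes only, moved the other way. Its log2 intensity was 14.36, 13.82 and 14.17 in HNK livers, 14.94, 14.23 and 14.40 in MUP livers, and 13.43, 13.79 and 13.55 in WT livers. All MUP values lay above all WT values, and the HNK values lay above all WT values and overlapped the MUP values. The mean was 14.52 ± 0.37 in MUP livers and 13.59 ± 0.19 in WT livers (SD, n = 3 each), a 1.91-fold higher level in MUP livers (log2 fold change 0.93, SE 0.22, limma adjusted p = 0.0396). The call was lost in 6 of the 9 fits that left out 1 array, those without MUP 1, MUP 3, HNK 3 or any WT array, with limma adjusted p up to 0.156. All 3 called genes belong to the brightest 5 percent of probe sets.

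**Figure D2:**
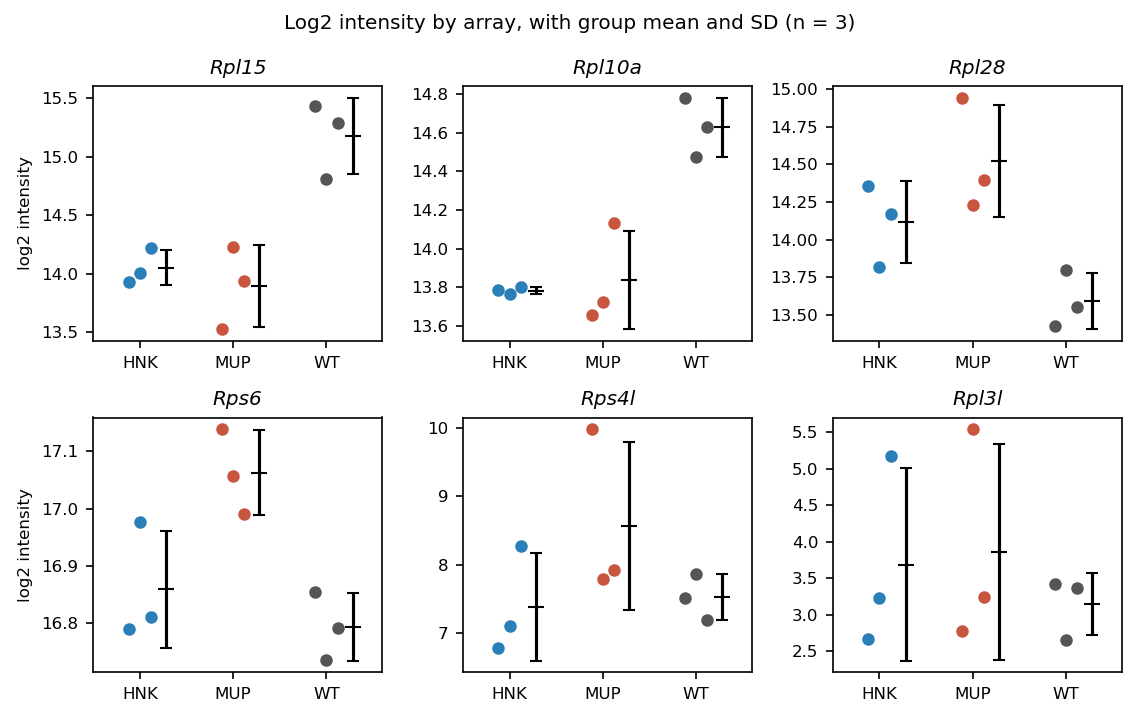
Log2 intensity of 6 ribosomal protein genes by array (points) in HNK, MUP and WT livers, with the group mean and SD beside the points (n = 3). Each panel has its own axis. Rpl15 and Rpl10a are lower in HNK and MUP livers than in WT livers, Rpl28 is higher in MUP livers, and the spread of Rps4l and Rpl3l comes from single arrays.

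Several other genes differed between MUP and WT livers without passing the test. Rps28, a small subunit protein near the mRNA exit, was 10.73, 10.87 and 10.56 in HNK livers, 11.12, 10.99 and 11.47 in MUP livers, and 10.53, 10.62 and 10.51 in WT livers (log2 difference MUP minus WT 0.64, limma adjusted p = 0.0986). Rps9, which binds early during small subunit assembly, was 10.52, 10.63 and 10.52 in HNK livers, 10.20, 10.59 and 10.26 in MUP livers, and 11.21, 10.65 and 11.28 in WT livers (-0.70, limma adjusted p = 0.109). The 3 MUP arrays were above the 3 WT arrays for Rps28 and below them for Rps9, where MUP 2 and WT 2 nearly met. Rpl7, a large subunit protein, differed by 0.74 between MUP and WT livers (limma adjusted p = 0.103), and Rpsa, the small subunit protein also known as the laminin receptor, by 0.77 (limma adjusted p = 0.144). Rpl9, a large subunit protein near the base of the stalk, differed by -0.58 (limma adjusted p = 0.255), and here WT 2 lay inside the MUP range. With arrays weighted by their quality, Rpl7 and Rps28 passed (limma adjusted p = 0.0471 and 0.0432).

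Over the whole family, MUP values lay entirely above WT values for 9 genes and entirely below them for 4. These are 14.8% and 6.56% of the 61 genes, against 11.0% and 12.5% of all probe sets. The 9 were Rpl10l, Rpl14, Rpl28, Rpl7, Rps15a, Rps23, Rps28, Rps6 and Rpsa, and the 4 were Rpl10a, Rpl15, Rpl4 and Rps9. The 95% interval of the difference lay within a log2 change of 1 in either direction for 48 of the 61 genes.

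HNK livers were then compared with MUP livers, which asks what honokiol changed in the injured liver. No gene of the family passed. By limma, 0 of 61 genes and 1 of the 22206 probe sets were called, a share of 0.00450%. At an unadjusted p under 0.05, 0 ribosomal protein genes were higher and 2 were lower in HNK livers, Rps28 and Rps4l, beside 2.09% and 2.27% of all probe sets (4.36% in either direction). For 60 of the 61 genes the log2 difference was below 0.5 in size, the exception being Rps4l (-1.18), and for 59 its 95% interval lay within a log2 change of 1 in either direction, the exceptions being Rpl3l and Rps4l.

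The means leaned toward lower values in HNK livers. They were lower for 44 genes and higher for 17, so that 72.1% were lower, beside 51.5% of all probe sets and 65.8% of 76 genes for mitochondrial ribosomal proteins. The median log2 difference was -0.12, beside -0.01 over all probe sets and -0.07 over the mitochondrial set. Genes of the family vary together from array to array, so these shares do not count independent events. Without MUP 2 and HNK 3, the arrays with muscle genes, the median was -0.05.

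Rps28 had the lowest unadjusted p in this direction among the genes whose groups did not overlap. It was lower on each HNK array (10.73, 10.87 and 10.56) than on each MUP array (11.12, 10.99 and 11.47), with a log2 difference of -0.48 (95% interval -0.90 to -0.06, limma adjusted p = 0.998). HNK values lay entirely below MUP values for 4 genes, Rpl41, Rps26, Rps28 and Rps6, and entirely above them for 0. These are 6.56% of the family, beside 4.48% of all probe sets lower and 4.11% higher. Rpl14, a large subunit protein, differed by -0.41 and Rpl28 by -0.41, and Rpl35a, another large subunit protein, had the largest positive difference of 0.41 (limma adjusted p = 0.998 for each). The interval of the Rpl28 difference ran from -0.89 to 0.07.

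For Rpl15 and Rpl10a the 2 groups of MUP-uPA mice did not separate. HNK minus MUP was 0.16 for Rpl15 (95% interval -0.32 to 0.64) and -0.05 for Rpl10a (-0.43 to 0.32), each with a limma adjusted p of 0.998. A change of 1 log2 unit lies outside both intervals.

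**Figure D3:**
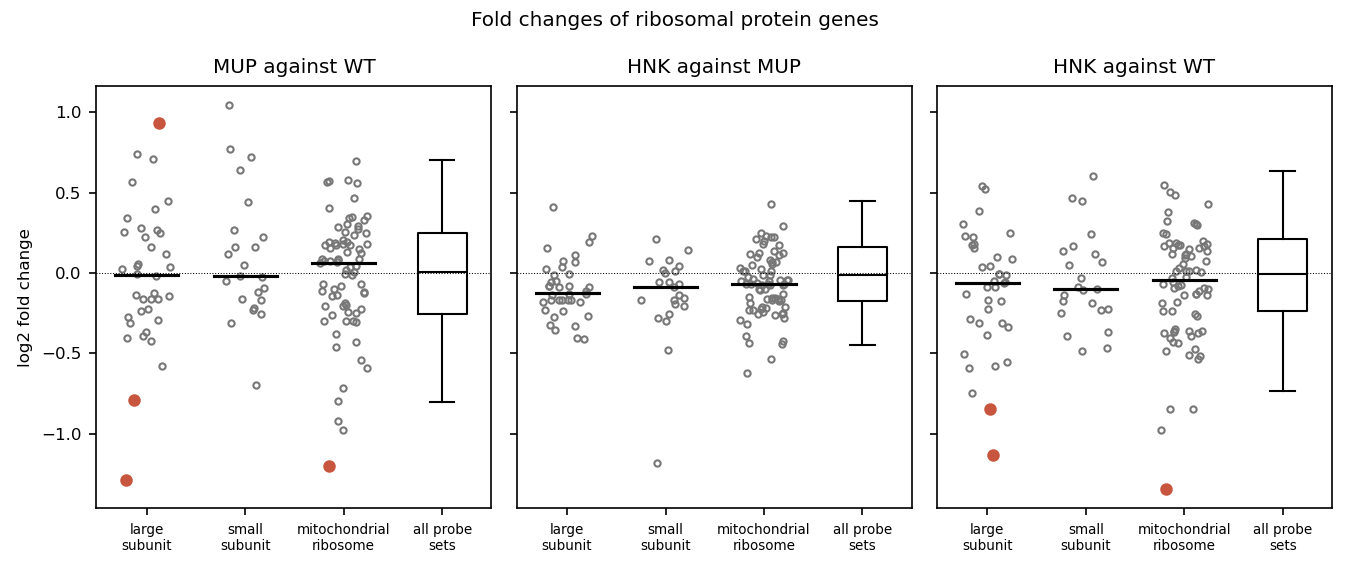
Log2 fold changes of the ribosomal protein genes of the large (n = 38) and small (n = 23) subunit and of 76 genes for mitochondrial ribosomal proteins, in the 3 comparisons. Each open point is a gene, filled points are called by limma at an adjusted p under 0.05, bars are medians, and the box shows the quartiles of all 22206 probe sets with whiskers at the 5th and 95th percentiles. The family straddles 0 in MUP against WT livers, and nearly all points lie within 0.5 of 0 in HNK against MUP livers.

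In HNK against WT livers, which share their WT arrays with the first comparison, 0 genes were called higher and 2 lower, Rpl15 and Rpl10a. That is 3.28% of the family, beside 2.29% of all probe sets (0.964% higher and 1.33% lower). With no adjustment of p, 2 genes were higher and 9 lower at the 0.05 level, beside 6.07% and 8.02% of all probe sets (14.1% in either direction). The median log2 difference was -0.09 over the family and -0.01 over all probe sets. Without HNK 1, HNK 2, WT 1 or WT 3, 0 genes were called, and without MUP 2 and HNK 3 together 1 was.

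Groups did not overlap for 3 genes with higher HNK values (4.92%, beside 9.37% of all probe sets) and 7 with lower values (11.5%, beside 11.1%). Next after Rpl15 and Rpl10a came Rpl9, with 12.46, 12.78 and 12.46 in HNK livers and 13.57, 12.78 and 13.57 in WT livers (log2 difference -0.74, limma adjusted p = 0.169). HNK 2 and WT 2 were almost equal. Rpl6, a large subunit protein, averaged 14.47 ± 0.43 in HNK livers and 15.06 ± 0.05 in WT livers (SD, n = 3 each; log2 difference -0.59, limma adjusted p = 0.202). The largest positive differences were those of Rpsa (0.61, limma adjusted p = 0.317), Rpl3l (0.54), Rpl28 (0.52, limma adjusted p = 0.297) and Rps15a (0.46), and none was called.

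Rps6 encodes the S6 protein that S6 kinases phosphorylate, and its RNA differed little. Its log2 intensity was 16.79, 16.98 and 16.81 in HNK livers, 17.14, 17.06 and 16.99 in MUP livers, and 16.86, 16.74 and 16.79 in WT livers. The MUP values lay above all HNK and all WT values, by narrow gaps, and the HNK and WT values overlapped. The differences were 0.27 for MUP minus WT (SE 0.13, limma adjusted p = 0.332), -0.20 for HNK minus MUP (95% interval -0.49 to 0.09, limma adjusted p = 0.998) and 0.07 for HNK minus WT (limma adjusted p = 0.891). At 16.91 its mean was the second highest of the family.

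The stalk of the large subunit recruits the GTPases of translation. Its base protein Rplp0 was 11.98, 12.29 and 12.34 in HNK livers, 11.93, 12.55 and 12.39 in MUP livers, and 12.20, 11.61 and 12.32 in WT livers. Rplp1, which forms the stalk's arms, was 15.85, 15.42 and 15.28 in HNK livers, 15.76, 15.30 and 15.72 in MUP livers, and 16.25, 15.19 and 15.77 in WT livers. The groups overlapped for both genes, with WT 2 lowest for each and WT 1 highest for Rplp1, and neither was called in any comparison.

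Of the 61 genes, 6 were set apart as paralogues with a restricted or doubtful use. Rpl32l, whose name also marks it as like another member, Rpl32, was not set apart. Rpl3l replaces Rpl3 in striated muscle. It was 2.66, 3.22 and 5.17 in HNK livers, 2.77, 5.54 and 3.25 in MUP livers, and 3.41, 2.65 and 3.37 in WT livers. Its high values fell on HNK 3 and MUP 2, the same 2 arrays that held the skeletal muscle genes, and the others were at or below the negative controls.

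Rps4l, annotated as a transcribed pseudogene, was 6.78, 7.10 and 8.28 in HNK livers, 9.98, 7.80 and 7.92 in MUP livers, and 7.52, 7.86 and 7.19 in WT livers. It had the largest difference of the family between HNK and MUP livers (log2 -1.18, limma adjusted p = 0.998) and the largest positive one between MUP and WT livers (1.04, limma adjusted p = 0.35), and both rest on MUP 1: without it they were -0.47 and 0.335. Rpl10l, a testis paralogue, had means of 5.96 ± 0.34 in HNK, 6.29 ± 0.32 in MUP and 5.73 ± 0.28 in WT livers (SD, n = 3 each). Rpl39l, also of the testis, stayed between 3.43 and 4.06 on every array. Rps27l, a p53 target in human cells, and Rpl36al were bright (means over all arrays 12.75 and 11.05) and were not called in any comparison.

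The large and small subunits gave like medians. In MUP against WT livers the median log2 difference was -0.01 over the large subunit and -0.02 over the small subunit, in HNK against MUP livers -0.12 and -0.09, and in HNK against WT livers -0.06 and -0.10. All 3 called genes were of the large subunit. HNK means were below MUP means for 29 of 38 large subunit genes (76.3%) and 15 of 23 small subunit genes (65.2%). The sign of the gap between subunit medians changed with the arrays left out, and no test was made of it.

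The start of the transcript was set beside the differences, with no test made. Of the 48 genes, 41 had a C with at least 4 more pyrimidines within 20 bases of the start. The split below rests on the exact annotated base and cannot be read as messenger RNAs with and without the TOP motif. The 12 genes with a pyrimidine run at the start had a median log2 difference of -0.06 in MUP against WT livers, with a range from -1.29 to 0.93, and the other 36 genes had 0.04, with a range from -0.79 to 0.77. Of the means, 7 of the 12 and 17 of the 36 were lower in MUP than in WT livers. In HNK against MUP livers the medians were -0.11 and -0.13, and 7 of the 12 and 27 of the 36 means were lower in HNK livers. Rpl15 and Rpl28, which moved in opposite directions, both belong to the 12. Brightness was also set beside the differences: in MUP against WT livers the median was -0.11 over the 32 genes of the top 5 percent and 0.05 over the other 29, in HNK against MUP livers -0.13 and -0.09, and in HNK against WT livers -0.15 and 0.05.

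The family varied between mice of one group by as much as between groups. After the mean of each gene was subtracted, the median over the 61 genes was 0.12, -0.09 and -0.17 on the HNK arrays, -0.13, 0.03 and 0.13 on the MUP arrays, and 0.24, -0.20 and 0.07 on the WT arrays. The SD of this shift within groups was 0.172, above each of the median differences between groups. The median over all probe sets stayed between -0.03 and 0.005 on every array, a value that the normalization itself holds near 0.

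WT 1 and WT 2 lay farthest apart. WT 1 was above WT 2 for 51 of the 61 genes, with a median log2 difference of 0.56, while over all probe sets 11345 of 22206 were above, with a median of 0.01. WT 1 held the highest value of the 9 arrays for 19 genes and WT 2 the lowest for 22. Both are wild-type livers under the same label, and what set them apart was not tested. Without WT 1 or without WT 3, 0 ribosomal protein genes were called in MUP against WT livers.

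**Figure D4:**
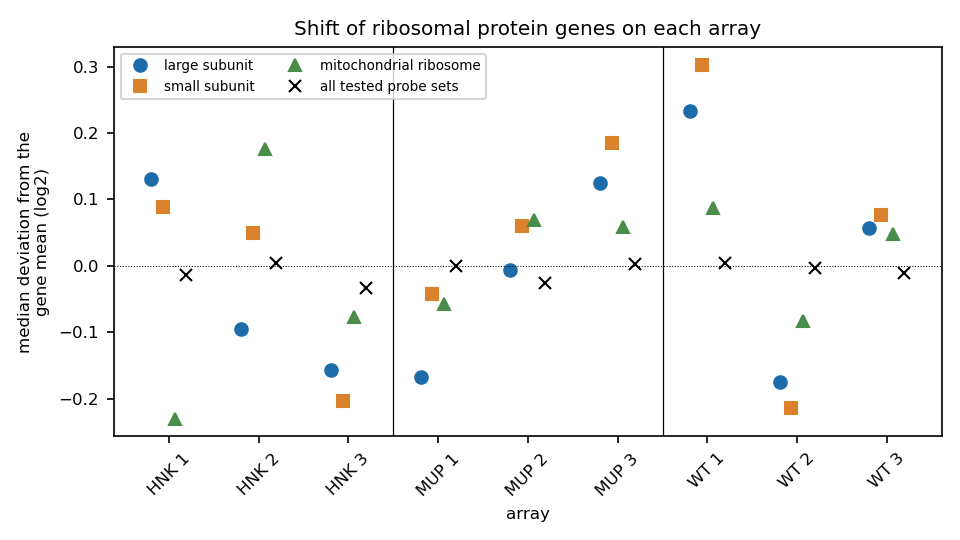
Median deviation from the gene mean (log2) on each of the 9 arrays, in the order HNK, MUP and WT, for the large subunit, the small subunit, 76 genes for mitochondrial ribosomal proteins and all 22206 tested probe sets. Large and small subunit points have the same sign on all arrays but HNK 2 and MUP 2, with the highest pair on WT 1 and the lowest on WT 2, while all probe sets stay near 0.

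Both subunits shared this variation. After group means were subtracted, the correlation between pairs of the 61 genes over the 9 arrays had a median r of 0.423, with 78.2% of pairs positive. It was 0.406 within the large subunit and 0.451 within the small subunit, beside 0.267 among the mitochondrial ribosomal protein genes and 0.00197 among every 7th probe set of the array. These r values share their arrays, and with them any technical difference between arrays. The shift of the mitochondrial set was -0.23, 0.18 and -0.08 on the HNK arrays, -0.06, 0.07 and 0.06 on the MUP arrays, and 0.09, -0.08 and 0.05 on the WT arrays. Its sign was opposite to that of the cytosolic family on HNK 1 and HNK 2 and the same on the other 7 arrays, and no test was made of this.

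Related gene lists were read in the same fit. Other messenger RNAs known for a TOP motif, such as those of translation factors, had 19 measured genes, of which 1 was called lower in MUP than in WT livers (5.26%, beside 2.13% of all probe sets) and 0 higher. It was Eif2s3x, a subunit of the initiation factor that brings the first tRNA. It was 12.12, 11.97 and 12.23 in HNK livers, 11.49, 11.96 and 12.10 in MUP livers, and 13.05, 13.03 and 13.15 in WT livers. All HNK and MUP values lay below the WT values (MUP minus WT -1.23, SE 0.19, limma adjusted p = 0.00597; HNK minus WT -0.97, limma adjusted p = 0.0247). The call in HNK against WT livers was lost without any one of the HNK or WT arrays (limma adjusted p = 0.0555 to 0.123). In HNK against MUP livers 0 of the 19 were called, and 1, the nucleolar protein Npm1, was higher at an unadjusted p under 0.05, as were 2.09% of all probe sets (log2 difference 0.40, limma adjusted p = 0.998).

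Of 27 genes for ribosome biogenesis, 0 were called by limma in any comparison. After the mean of each gene was subtracted, the median over the list was -0.24, -0.01 and -0.10 on the HNK arrays. It was -0.17, 0.39 and 0.17 on the MUP arrays, and -0.07, -0.08 and -0.11 on the WT arrays. MUP 1 lay below every WT array, and MUP 2, which held skeletal muscle genes, lay highest. The part of muscle tissue in the differences of this list was not tested. In MUP against WT livers the median log2 difference was 0.23, 29.6% of the means were lower, beside 49.5% over all probe sets, and at an unadjusted p under 0.05 9 genes were higher and 1 lower, beside 7.82% and 9.52% of all probe sets. The transcription factor Myc had the lower value (-1.45, limma adjusted p = 0.0844), and Ncl, the nucleolar protein nucleolin, was among the higher ones (0.68, limma adjusted p = 0.107). In HNK against MUP livers the median was -0.24, 77.8% of the means were lower, beside 51.5% over all probe sets, and 3 genes had lower levels at the 0.05 level before adjustment, beside 2.27% of all probe sets.

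The smallest p-values among these were those of Rrn3 and Fbl. Rrn3, an initiation factor of RNA polymerase I, was 7.77, 8.02 and 8.34 in HNK livers, 8.56, 9.25 and 8.70 in MUP livers, and 8.17, 8.05 and 8.17 in WT livers. Fbl, the ribosomal RNA methyltransferase fibrillarin, was 9.49, 9.88 and 9.95 in HNK livers, 10.30, 10.27 and 10.31 in MUP livers, and 9.79, 9.54 and 9.74 in WT livers. For both genes the 3 MUP values lay above all HNK and WT values. HNK minus MUP was -0.79 for Rrn3 and -0.52 for Fbl (limma adjusted p = 0.998 for each), and 0.60 was the difference of Fbl between MUP and WT livers (limma adjusted p = 0.126).

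Of 32 genes for mTORC1 and S6 kinase signaling, 0 were called in any comparison, and the median log2 differences were -0.10 in MUP against WT livers, 0.05 in HNK against MUP livers and -0.001 in HNK against WT livers. The S6 kinase gene Rps6kb1 was not analysed here. At an unadjusted p under 0.05, limma gave 1 gene higher and 4 lower in MUP against WT livers and 0 in either direction in HNK against MUP livers, beside 7.82% higher and 9.52% lower of all probe sets in the first comparison and 4.36% in the second. Ddit4, a stress-induced mTORC1 inhibitor, differed by -1.30 between MUP and WT livers (limma adjusted p = 0.0875) and Deptor, an mTOR-binding inhibitor, by 0.83 (limma adjusted p = 0.149). The MUP values of Ddit4, 5.01, 4.93 and 4.85, lay below the highest negative control median of 5.10. Its WT values were 5.59, 6.62 and 6.47, so the size of its difference is uncertain. In HNK against MUP livers the smallest p-values of this list were those of Sesn3, a sestrin that restrains mTORC1 (0.38), and Flcn, folliculin (0.51), each with a limma adjusted p of 0.998.

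Among the 76 genes for mitochondrial ribosomal proteins, which serve a separate ribosome, 0 were called higher and 1 lower in MUP against WT livers, Mrpl57 (-1.20, limma adjusted p = 0.037). This is 1.32% of the list, beside 2.13% of all probe sets called lower. The call was lost without MUP 1, MUP 2, MUP 3, WT 1 or WT 3 (limma adjusted p = 0.07 to 0.15) and without MUP 2 and HNK 3 together (0.0661). In HNK against WT livers 0 were called higher and 1 lower, Mrpl52 (-1.34, limma adjusted p = 0.0298), beside 1.33% of all probe sets called lower. This call was lost without HNK 1, HNK 3 or any WT array, and without MUP 2 and HNK 3 together (limma adjusted p = 0.0765 to 0.127). In HNK against MUP livers 0 were called and 1, Mrpl34, was lower at an unadjusted p under 0.05 (-0.62), as were 2.27% of all probe sets. The paralogues Rpl7l1 and Rpl22l1, which lie outside the naming rule, were not called in any comparison.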

How the data were processed

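Liver RNA of 9 mice was measured on Clariom S mouse arrays. The intensity values are those the authors deposited, after normalization by RMA in Affymetrix Expression Console as their processing notes name them. No version, scan batch or genome build of the values is given in the sources used. The values were linear, and log2 was taken. Of 28846 rows, 6640 control rows were left out. The design text of the deposit counts 6 mice on arrays, whereas 9 samples in 3 groups carry labels. The labels gave the groups, and the methods of the study gave the regimen.

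A single limma model (version 3.58.1, R 4.3.3, eBayes with a variance trend) was fitted to all 9 arrays and 22206 probe sets, without covariates. Two-sided p-values were adjusted over all probe sets (Benjamini-Hochberg), and a gene with an adjusted p under 0.05 is termed called. The fit was also run on simulated data as a check of the code only. There each probe set varied independently, unlike the genes of this family. The number of arrays limits the precision. Probe sets may also read processed pseudogenes of these genes, which was not tested. Genes were named if called, if among the 4 largest differences in each direction, if brightest or dimmest, or if of the stalk, the paralogues or Rps6, and from other lists if called or of smallest p. Not every such gene is printed. The genes, lists and rules were chosen with earlier results of these data known, and the promoter motifs were added after the files were seen.

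Alternatives were a fit of only the compared groups, a block for the replicate number, array weights, no dim probe sets (the lowest 40 percent), cyclic loess, median centring, no variance trend, no paralogues, no arrays with muscle genes, and each array left out in turn.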

Additional observations from a re-analysis of the deposited data

How the results depend on the processing

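In MUP against WT livers the number of called ribosomal protein genes, 3, was 5 with array weights and 1 without a variance trend, and 0 to 3 with 1 array left out. In HNK against WT livers it was 2, with 1 without a variance trend, 1 without MUP 2 and HNK 3, and 0 to 2 with 1 array left out. In HNK against MUP livers it was 0 under every alternative run. The large minus small subunit median in MUP against WT livers was -0.16 without MUP 2 and HNK 3, and -0.16 to 0.016 with 1 array left out, and in HNK against MUP livers -0.11 to 0.043. The median over the family moved by less than its SD within groups under every alternative, with -0.14 to 0.10 in MUP against WT livers, -0.19 to -0.04 in HNK against MUP livers and -0.18 to 0.04 in HNK against WT livers when 1 array was left out. The HNK minus MUP difference changed sign for Rpl15 without MUP 1 (-0.030) and for Rpl10a without MUP 3 (0.092). Left out 1 at a time, the arrays gave -0.030 to 0.32 for Rpl15 and -0.14 to 0.092 for Rpl10a. The cause of these shifts was not tested.

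The replicate numbers of the labels were read as a block, and 3, 0 and 2 ribosomal protein genes were called in MUP over WT, in HNK over MUP and in HNK over WT livers, as without it, while Mrpl57 lost its call (limma adjusted p = 0.0574). Deviations of arrays with the same number in different groups correlated between -0.286 and 0.397, and those with different numbers between -0.465 and 0.541. The labels do not say whether a number marks a litter or a batch, and these values cannot decide it. The mean over several probe sets per gene could not be formed, since each gene had 1.

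In MUP against WT livers the calls of Rpl10a (limma adjusted p = 0.0512) and Rpl28 (0.0576) were also lost without a variance trend, and that of Rpl10a without MUP 2 and HNK 3 (0.0919). In the genes read beside the family, Myc (limma adjusted p = 0.0142) and Ddit4 (0.038) passed in MUP against WT livers when the arrays of both groups were fitted alone, both passed with array weights (0.0342 and 0.0424) and without HNK 3 (0.0304 and 0.0323), Myc also passed without HNK 2 (0.0219), and Deptor passed without WT 2 (0.0228).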
